A study of Mus musculus with 12 samples.

Results

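The guanylate-binding proteins (GBPs) and immunity-related GTPases (IRGs), a pair of GTPase families that interferon switches on in macrophages, were followed through 10 genes: *Gbp2*, *Gbp3*, *Gbp5*, *Gbp6*, *Gbp7*, *Irgm1*, *Irgm2*, *Igtp*, *Iigp1* and *Ifi47*. The genes were chosen by name, and a probe was given to a gene where the accession printed for it on the array belonged to that gene. This gave 11 probes of 41174, with 2 probes for *Irgm1* and 1 for each other gene, and 10 genes of 32301. All 10 were among the 22367 genes kept by the filter on dim probes. *Gbp6* passed it only through the M1 arrays, while the other 9 genes were well above background on all 12 arrays. Since the filter fixed the direction of its M1 difference, counts and medians below are over those 9 genes, and *Gbp6* is described apart.

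RNA came from bone marrow-derived macrophages (BMDMs), which are bone marrow cells grown for 7 days with M-CSF, the growth factor of macrophages. Each of the 12 single-colour arrays held the RNA of 1 sample, and the 6 groups of 2 arrays crossed genotype with stimulus. The wild-type (WT) mice were compared with KpCKO mice, whose genotype is *Keap1* flox/flox::*LysM*-Cre, all 8 weeks old and of strain C57BL/6 in the labels and C57BL6/J in the methods. Cells were left untreated (Con), were given LPS and IFNγ (M1), or were given IL-4 (M2), and both stimuli lasted 6 h. The Cre recombinase was driven by the lysozyme M locus, which is active in myeloid cells, so the deletion rests on that promoter. Culture 1 used a male mouse of each genotype and culture 2 a female of each, so culture and sex cannot be told apart, and p-values rest on 2 mice per genotype. Con, M1 and M2 arrays lay on 3 separate slides, so stimulus and slide cannot be told apart, whereas the genotypes were compared within a slide. In such bulk RNA, fewer cells that express a gene and less RNA per cell cannot be told apart either.

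GBPs are large GTPases that assemble on the vacuoles and membranes of pathogens, break them open and expose bacterial LPS to the caspase that senses it inside the cell. Among the IRGs, the IRGM proteins (*Irgm1*, *Irgm2* and *Igtp*, also called Irgm3) sit on the cell's own membranes and hold the effector IRGs there inactive, while the effectors (*Iigp1*, also called Irga6, and *Ifi47*, also called Irgd) load onto pathogen vacuoles. IFNγ acts through the kinases Jak1 and Jak2 and the GAS element of promoters. LPS acts through Tlr4 and leads to interferon β, which acts through the ISRE element. Keap1 marks the transcription factor Nrf2 for degradation, and Nrf2 that escapes it binds antioxidant response elements (AREs).

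A level is given throughout as the log2 of the processed spot intensity minus the log2 of the array's 75th percentile, so that 0 is the 75th percentile of that array, and a difference of 1 is a 2-fold difference. Levels were compared within a probe and never between probes. The sample labels were borne out by their marker genes. KpCKO cells had less *Keap1* RNA, with log2 differences of -1.46 (Con), -1.71 (M1) and -1.81 (M2), and more *Nqo1*, a target of Nrf2, by 3.23, 3.50 and 3.52. *Il6* rose by 13.16 in M1 and *Arg1* by 10.38 in M2 in WT cells. All 5 macrophage markers with a probe were well above background on every array. No tested marker of neutrophils, T and NK cells, B cells or fibroblasts passed the limma test between the genotypes in any of the 3 conditions. Their differences in Con still ran from -0.42 to 1.41 for neutrophils and from -0.33 to 1.27 for T and NK cells. They ran from -0.04 to 0.28 for B cells and from -0.39 to 0.15 for fibroblasts. The 75th percentile was 548 to 906 intensity units on the M1 arrays and 966 to 1166 on the others, and 59.4 to 71.5% of probes were well above background. No spot was saturated, and the brightest spot of the 10 genes reached 58.6% of the saturation value.

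The start of a gene is where the interferon elements would be read, so the promoters were searched first. RefSeq promoter windows of 300 bases (250 before the start and 50 after it, mouse build GRCm38.p6) matched 8 of the 10 genes, with 2 windows for *Gbp3*; none was used for *Gbp6* and *Iigp1*. The ISRE core, a pair of GAAA half-sites with any 2 bases between them, was searched on both strands and lay in 7 of the 8 genes and in 3.44% of all 32851 windows. The GAS core TTCNNNGAA lay in 4 of the 8 and in 8.30% of all windows, and both lay together in 4 of the 8 and in 0.454% of all windows. ARE cores, TGAGNNNGC or TGACNNNGC, lay in 4 of the 8 and in 27.8% of all windows. The stretches that hold the ISRE matches closest to the start are shown for 6 genes, 5′ to 3′ on the strand of the gene, with the ISRE and GAS matches in capitals.
*Gbp2*, chr3:142620594-142620623, + strand: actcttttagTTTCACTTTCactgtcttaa
*Gbp3*, chr3:142559989-142560024, + strand: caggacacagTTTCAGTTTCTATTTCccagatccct
*Gbp7*, chr3:142530220-142530302, + strand: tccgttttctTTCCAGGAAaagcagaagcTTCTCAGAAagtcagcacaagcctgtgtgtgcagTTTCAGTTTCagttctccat
*Irgm1*, chr11:48871425-48871460, - strand: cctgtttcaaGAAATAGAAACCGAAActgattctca
*Irgm2*, chr11:58214892-58214932, + strand: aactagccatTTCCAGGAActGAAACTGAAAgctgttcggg
*Igtp*, chr11:58199501-58199541, + strand: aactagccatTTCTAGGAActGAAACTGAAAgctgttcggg
In *Gbp2*, *Gbp3* and *Gbp7* the ISRE core is read on the opposite strand, as a pair of TTTC half-sites. The capitals of *Gbp3* and of *Irgm1* each hold 2 overlapping ISRE matches, and *Gbp7* holds 2 GAS matches upstream of its ISRE. *Irgm2* and *Igtp*, both IRGM genes on chromosome 11, were identical at 40 of the 41 bases shown, with a GAS and an ISRE match in the same order. *Gbp5* held 2 GAS matches and 1 ISRE match spread over a longer stretch, and the window of *Ifi47* held none of the 3 motifs. A match is a description of the letters in the window, and factor binding was not measured here.

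**Figure D1:**
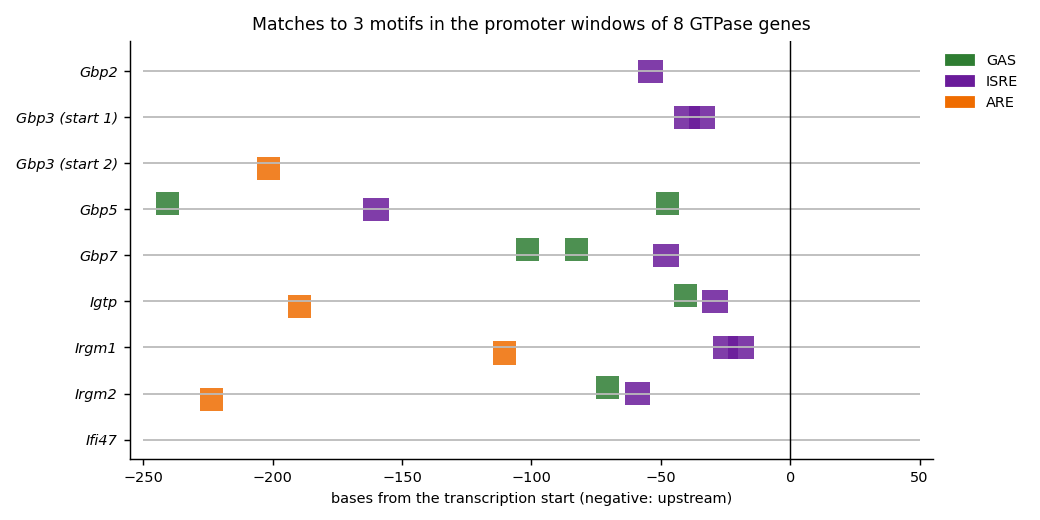
Positions of ISRE, GAS and ARE core matches (coloured boxes) in the 300-base promoter windows of 8 genes, with the distance from the transcription start in bases on the horizontal axis and 1 line per window. ISRE matches lie upstream of the start in 7 genes, and the *Ifi47* line carries no box.

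The first comparison asked how strongly LPS and IFNγ raised the genes in WT cells. All 9 genes measured on every array rose, by a median log2 difference of 6.80 against 0.13 over all genes tested, of which 34.5% were called higher and 28.7% lower. The difference ran from 4.08 for *Irgm2* to 10.29 for *Iigp1*. Ordered by their difference, the 9 genes ranked between 13 and 394 of 22356. The levels of Con and M1 arrays did not overlap for any of the 9, a separation in this direction that 44.0% of all genes showed.

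Among the GBPs, *Gbp2*, which coats pathogen vacuoles and bacteria, had levels of -0.08 and 0.66 in WT Con and of 8.96 and 9.62 in WT M1 (cultures 1 and 2). Its log2 difference was 9.0 ± 0.21 (SE of the limma model, n = 2 a group), a 513-fold rise. *Gbp5*, a GBP that promotes inflammasome assembly, went from -2.90 and -1.56 to 7.32 and 7.67, a difference of 9.72 ± 0.29. Both genes thus moved from near or below the 75th percentile of the array to far above it in each culture. *Gbp3* went from 0.80 and 1.03 to 7.67 and 7.76, and its difference was 6.80 ± 0.32. *Gbp7*, which has been tied to the oxidative defence of macrophages, went from -1.96 and -1.49 to 3.94 and 4.37, with a difference of 5.88 ± 0.29. *Gbp6* stood at -7.48 and -5.86 in WT Con, where only 1 of the 2 arrays was well above background, and at 4.79 and 4.53 in M1. Its fitted difference was 11.33 ± 0.43, which rests on the dim Con signals and fell to 8.51 with the normexp background correction. The adjusted p of *Gbp2*, *Gbp3*, *Gbp5* and *Gbp7* lay between 2.28e-06 and 1.01e-05 in limma.

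The IRGM genes rose by less. *Irgm1*, which guards host membranes and autophagy, had levels of 2.33 and 2.45 in WT Con and 7.34 and 7.22 in M1, a difference of 4.89 ± 0.12. Its other probe gave 4.99 ± 0.12. *Irgm2* went from 2.11 and 2.49 to 6.33 and 6.41, a difference of 4.08 ± 0.17, and *Igtp* from 2.63 and 2.99 to 7.91 and 7.97, a difference of 5.13 ± 0.14. The 3 IRGM genes had the smallest differences of the family under each setting.

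The effector IRGs rose further. *Iigp1*, the most studied effector at the vacuole of *Toxoplasma*, stood at -2.66 and -0.79 in WT Con and at 8.56 and 8.56 in M1. The cultures thus differed widely before the stimulus and not after it. Its difference was 10.29 ± 0.85, and leaving out single arrays gave 9.59 to 10.98. *Ifi47* went from 0.02 and 0.88 to 7.28 and 7.25, a difference of 6.82 ± 0.45.

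**Figure D2:**
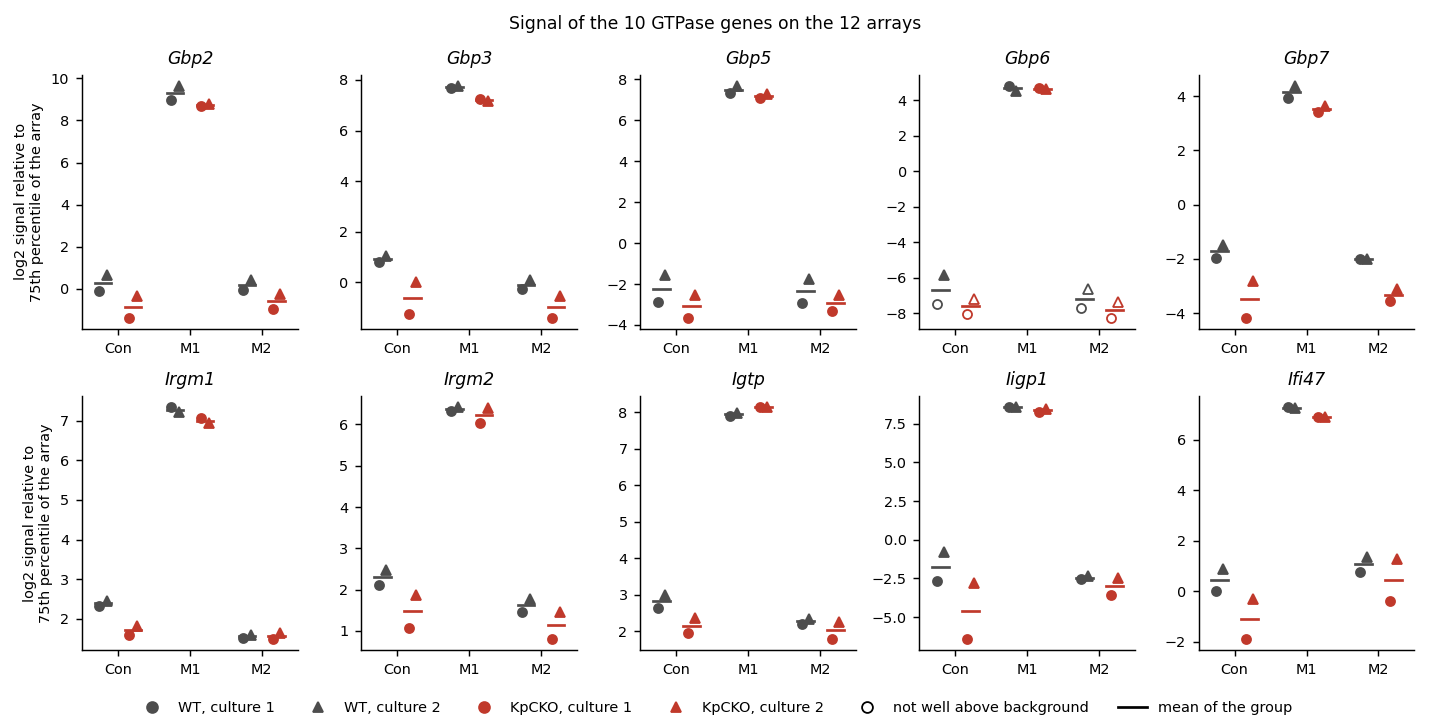
Level of each gene on the 12 arrays (log2 of the processed signal relative to the array's 75th percentile), by stimulus, for WT (grey) and KpCKO (red) in culture 1 (circles) and culture 2 (triangles); lines are group means and open symbols are spots not well above background. All 10 genes stand far higher on the 4 M1 arrays than on the 8 others, and the red Con symbols lie below the grey ones of the same culture, with *Gbp6* mostly open in Con and M2.

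In KpCKO cells all 9 genes measured on every array rose as well, beside 24.8% of all genes tested that were called higher. The median log2 difference was 7.84, against 0.03 over all genes, and the genes ranked between 2 and 169 of 22362. *Iigp1* showed the largest difference of the 9, from -6.39 and -2.78 in Con to 8.28 and 8.42 in M1, at 12.93 ± 0.85. That value leans on the very low Con level of culture 1, since it was 11.46 without that array, 14.41 without the Con array of culture 2, and 12.32 and 13.54 without the M1 array of culture 1 and of culture 2. *Gbp6* was not well above background on either KpCKO Con array, and with the processing used here it was at least 3520-fold higher in M1. That bound sets the M1 mean against the lowest signal well above background on each Con array. It holds for this processing only, since the fitted log2 difference of 12.27 ranged from 8.46 to 12.71 over the alternative settings. *Irgm2* again had the smallest difference, 4.74 ± 0.17. The adjusted p of the 9 genes in limma was at most 5.07e-05 in KpCKO and at most 7.02e-05 in WT cells. The levels of Con and M1 arrays did not overlap for any of the 9 genes, which 35.5% of all genes showed in this direction. All 9 calls in each genotype held with any single array of that comparison left out.

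The next comparison asked whether the loss of *Keap1* changed the genes before any stimulus. In Con cells all 9 genes measured on every array were lower in KpCKO than in WT in both cultures, with a median log2 difference of -1.14 against 0.00 over all genes tested. *Gbp2*, *Gbp7* and *Irgm1* passed the test, 3 of the 9 genes, where 0.827% of all genes tested were called lower. Levels of the 2 genotypes did not overlap for 8 of the 9, all but *Gbp5*, a separation in this direction that 17.7% of all genes showed. Unadjusted, all 9 had a limma p under 0.05, against 14.1% of all genes.

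*Gbp7* fell the most among the called genes. Its Con levels were -1.96 and -1.49 in WT and -4.17 and -2.82 in KpCKO cells. The KpCKO array was the lower one in each culture, and the difference of -1.77 ± 0.29 (a 3.41-fold lower signal) had an adjusted p of 0.0329 in limma. For *Gbp2*, whose KpCKO levels were -1.36 and -0.34, the difference was -1.14 ± 0.21 with an adjusted p of 0.0477. *Irgm1* had KpCKO levels of 1.60 and 1.82, and its difference of -0.68 ± 0.12 had an adjusted p of 0.0390. The other probe of *Irgm1* gave -0.69 ± 0.12, with an adjusted p of 0.0407. The small spread of *Irgm1* between cultures let a modest difference pass, while larger differences of other genes did not.

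*Iigp1* showed the widest gap, -2.86 ± 0.85 with an adjusted p of 0.180 in limma. Its 2 cultures gave -3.73 and -1.98. The difference was -1.38 without the KpCKO Con array of culture 1. *Gbp3*, at -1.27 and 0.01 in KpCKO cells, differed by -1.54 ± 0.32 with an adjusted p of 0.0696. *Ifi47*, at -1.87 and -0.30, differed by -1.54 ± 0.45 with an adjusted p of 0.173. For *Irgm2*, at 1.08 and 1.86, the difference was -0.82 ± 0.17, and for *Igtp*, at 1.94 and 2.36, it was -0.66 ± 0.14. *Gbp5* stood at -3.64 and -2.52 in KpCKO cells and differed by -0.85 ± 0.29 with an adjusted p of 0.246. *Gbp6* had levels of -8.03 and -7.21, both not well above background, and in culture 1 it was not well above background in WT cells either, so no difference is given.

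The 3 calls in Con were not firm. None was made without the term for culture (adjusted p 0.125 for *Gbp7*, 0.439 for *Gbp2* and 0.0790 for *Irgm1*), and none without the WT Con array of culture 1, the WT Con array of culture 2 or the KpCKO Con array of culture 1. Without the KpCKO Con array of culture 2, 2 genes passed, *Gbp7* and *Gbp3*. The difference of *Gbp7* stayed between -2.29 and -1.25 over the alternative settings, and all 9 genes kept a negative difference under each setting.

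**Figure D3:**
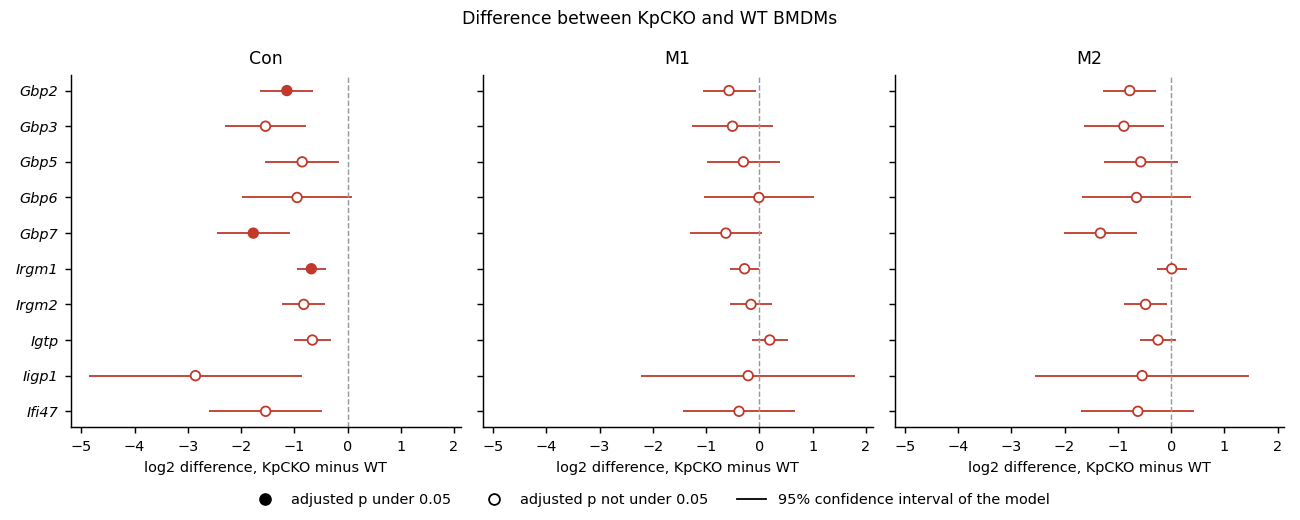
Log2 difference between KpCKO and WT BMDMs for each gene in Con, M1 and M2, with the model's 95% confidence interval (bars) and filled points where the adjusted p was under 0.05. All points lie left of 0 in Con, where *Gbp2*, *Gbp7* and *Irgm1* are filled and *Gbp6* rests on dim spots, and no point is filled in M1 or M2.

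After LPS and IFNγ the genotypes lay closer. No member passed the test (limma, lowest adjusted p 0.108, for *Gbp2*), beside 8.59% of all genes tested called lower and 7.41% called higher. That background was not steady, since the 16.0% called in either direction was 5.34% without the term for culture, 3.73% when KpCKO M1 of culture 1 was left out and 4.87% when WT M1 of culture 2 was. Unadjusted, *Gbp2* and *Irgm1*, 2 of the 9, had a limma p under 0.05, against 34.1% of all genes. The methods' t-test without adjustment called 3 members, beside 2729 of the 22196 genes it could test. The median log2 difference of the 9 was -0.30, against -0.09 over all genes, and the range ran from -0.63 for *Gbp7* to 0.20 for *Igtp*. Levels of the genotypes did not overlap for 7 genes with KpCKO lower, a separation shown by 30.4% of all genes, and for *Igtp* with KpCKO higher, shown by 20.0%.

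*Gbp2* had M1 levels of 8.96 and 9.62 in WT and of 8.69 and 8.76 in KpCKO cells, a difference of -0.57 (95% confidence interval -1.07 to -0.07). *Gbp7*, at 3.43 and 3.63 in KpCKO cells, differed by -0.63 (-1.31 to 0.05). Both were a little below WT in each culture. *Igtp* was the only member with a higher mean in KpCKO cells, at 8.13 and 8.14 against 7.91 and 7.97 in WT, and its difference of 0.20 (-0.14 to 0.54) did not pass. The M1 levels of *Iigp1*, 8.56 and 8.56 in WT and 8.28 and 8.42 in KpCKO cells, differed by -0.21 (-2.21 to 1.79). The model pools the variance of a gene over all groups, so its standard error is the same in Con and M1 (0.85 for *Iigp1*). The width of the *Iigp1* interval thus includes the spread in Con and is not that of the M1 arrays alone. Its Con levels were -2.66 and -0.79 in WT and -6.39 and -2.78 in KpCKO cells. *Gbp6* differed by -0.01 (-1.04 to 1.02). With quantile normalization the differences of *Gbp6*, *Irgm2* and *Iigp1* changed sign, to 0.17, 0.07 and 0.04. The split of all genes called in M1 moved with the scaling too, with 46.3% of them higher in KpCKO cells here and 60.0% after quantile normalization.

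Whether the rise itself differed between the genotypes was tested as the KpCKO rise minus the WT rise. The estimate was positive for all 9 genes measured on every array, with a median of 0.86 against -0.07 over all genes, but none passed the test (limma, lowest adjusted p 0.158, for *Igtp*), and 0.0716% of all genes did in either direction. Unadjusted, *Gbp7*, *Irgm1*, *Irgm2* and *Igtp* had a p under 0.05, 4 of 9 against 16.4% of all genes. *Igtp* had the smallest unadjusted p, with a rise of 5.99 in KpCKO and 5.13 in WT cells, a difference of 0.86 ± 0.20. *Iigp1* had the largest estimate, 2.65 ± 1.20, which was 1.17 without the KpCKO Con array of culture 1. The WT and KpCKO rises are each measured from their own Con arrays, so this estimate and the Con difference between the genotypes share samples.

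**Figure D4:**
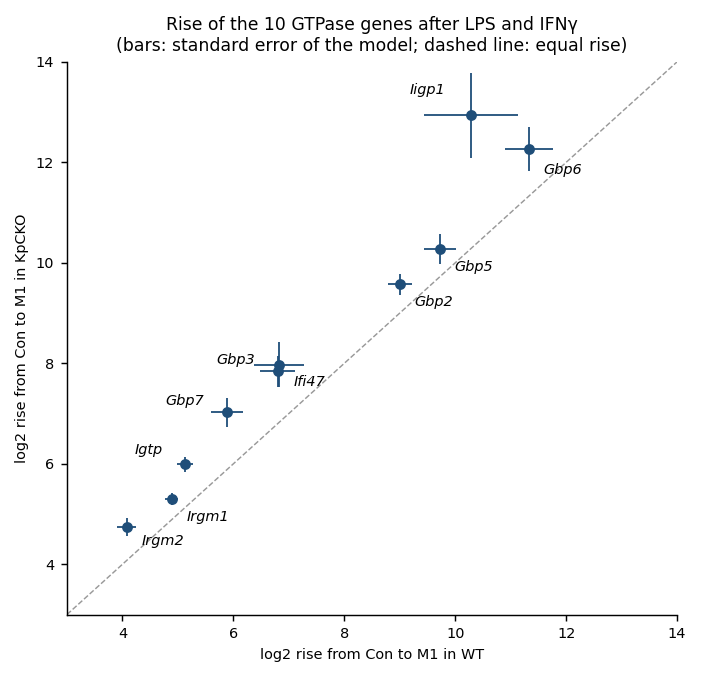
Log2 rise from Con to M1 in WT (horizontal) and KpCKO (vertical) BMDMs for the 10 genes, with standard errors of the model; the dashed line marks equal rises. All 10 points lie above the line, from *Irgm2* at 4.08 and 4.74 to *Iigp1* at 10.29 and 12.93, and *Gbp6* rests on dim Con spots.

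IL-4 was compared with Con next, against the same Con arrays as M1. In WT cells *Irgm1*, *Irgm2* and *Igtp*, all 3 IRGM genes, were lower in M2, and no member was called higher, where 8.20% of all genes tested were called lower and 8.62% higher. *Irgm1* went from 2.33 and 2.45 to 1.52 and 1.60, and its difference of -0.83 ± 0.12 had an adjusted p of 0.00625 in limma. The other *Irgm1* probe gave -0.74 ± 0.12. *Irgm2*, at 1.46 and 1.78 in M2, differed by -0.68 ± 0.17 (adjusted p 0.0387), and *Igtp*, at 2.20 and 2.33, by -0.55 ± 0.14 (adjusted p 0.0437). The M2 arrays lay below the Con arrays for these 3 genes, for *Gbp3* and for *Gbp7*, so 5 of the 9 measured genes did not overlap with M2 lower, which 30.5% of all genes showed. The median difference of the 9 was -0.55, against -0.01 over all genes.

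*Gbp3* stood at -0.27 and 0.09 in WT M2 and differed by -1.0 ± 0.32 with an adjusted p of 0.0757. *Ifi47* was the only gene with a higher mean in M2, at 0.78 and 1.36 against 0.02 and 0.88, a difference of 0.62 ± 0.45 that did not pass. *Gbp2*, at -0.04 and 0.42, and *Gbp5*, at -2.95 and -1.76, differed by -0.10 ± 0.21 and -0.12 ± 0.29, and neither passed. *Gbp6* was not well above background on any M2 array of either genotype. The calls of *Irgm2* and *Igtp* were lost without the term for culture (adjusted p 0.250 and 0.169), where only *Irgm1* passed (0.0107). They were also lost without any 1 of the WT Con and WT M2 arrays, and that of *Irgm1* was lost without the WT Con array of culture 2 (adjusted p 0.0572).

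In KpCKO cells no member passed the test for IL-4 (limma), beside 4.53% of all genes called lower and 5.66% called higher. Only *Ifi47* had an unadjusted p under 0.05, which 27.1% of all genes had. *Ifi47* stood at -1.87 and -0.30 in Con and at -0.38 and 1.27 in M2. Each culture rose by about the same amount, 1.49 and 1.57, but the groups overlapped, and the difference of 1.53 ± 0.45 had an adjusted p of 0.0784. It passed with trended and robust variances (0.0492) and with only the Con and M2 arrays in the model (0.0406). The IRGM genes differed by -0.14 for *Irgm1*, -0.33 for *Irgm2* and -0.13 for *Igtp*. *Irgm1* had M2 levels of 1.5 and 1.65, next to 1.60 and 1.82 in Con.

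The test of the difference between the IL-4 responses called no member, and 0.00894% of all genes tested passed it. *Irgm1* had the only unadjusted p under 0.05, which 2.02% of all genes had, with an estimate of 0.69 ± 0.17 and an adjusted p of 1. Between the genotypes in M2, KpCKO cells had lower means for 8 of the 9 measured genes and a median difference of -0.57 against 0.02 over all genes, but none passed (limma), where 0.644% of all genes were called lower and 1.28% higher. *Gbp7* came closest, at -2.0 and -1.99 in WT and -3.54 and -3.11 in KpCKO cells, a difference of -1.33 ± 0.29 with an adjusted p of 0.0859. It passed with the normexp correction (0.0206) and with trended and robust variances (0.0472). Unadjusted, *Gbp2*, *Gbp3*, *Gbp7* and *Irgm2* had a limma p under 0.05, 4 of the 9 against 14.3% of all genes. Levels of the genotypes did not overlap for 3 genes, which 16.9% of all genes showed in this direction. *Irgm1* differed by 0.01 (95% confidence interval -0.27 to 0.29).

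**Figure D5:**
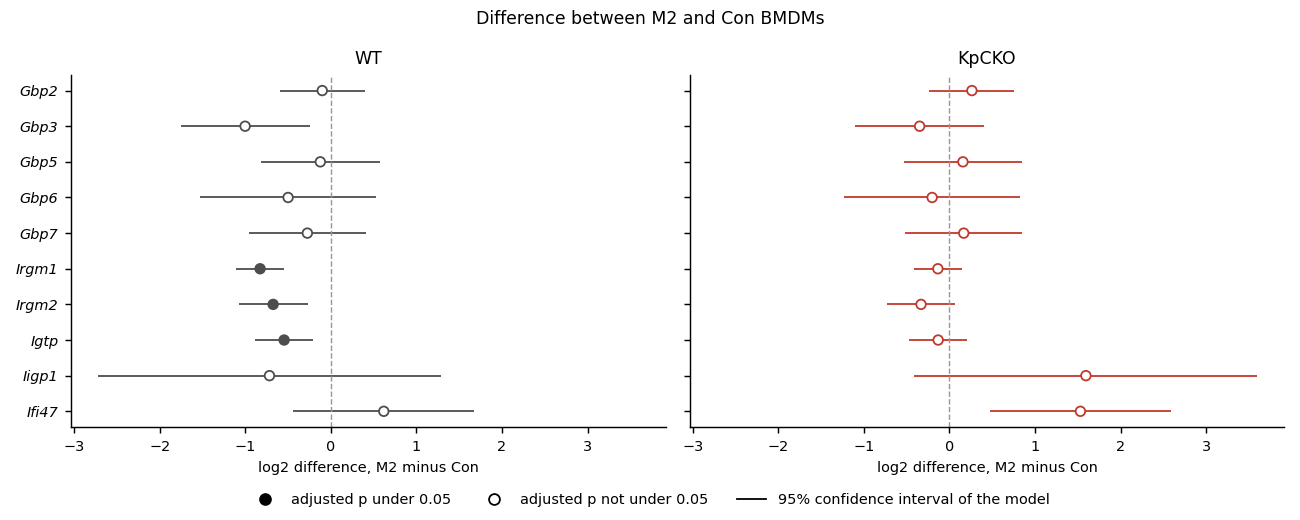
Log2 difference between M2 and Con for each gene in WT and KpCKO BMDMs, with the model's 95% confidence interval (bars) and filled points where the adjusted p was under 0.05. *Irgm1*, *Irgm2* and *Igtp* are filled and below 0 in WT, and no gene is filled in KpCKO cells.

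Other genes of the same families gave 8 of 14 listed genes with a probe, and 7 were tested. In WT M1 cells 6 of the 7 rose: *Gbp4* by 12.39, *Gbp2b* by 9.99, *Tgtp1* by 9.23, *Gbp8* by 6.82, *Gm12250* (Irgb10, an effector IRG) by 6.56 and *Gbp9* by 5.46. *Irgq*, an IRG-like gene, fell by 0.90 at its brighter probe and differed by -0.12 (adjusted p 0.447) at the dimmer one, which was higher in KpCKO M1 than in KpCKO Con by 0.42 (adjusted p 0.0363). Over all genes tested, 34.5% were called higher and 28.7% lower in this comparison. In Con the KpCKO cells were lower for 2 of the 7, *Gbp8* by -1.62 ± 0.27 and *Gm12250* by -1.31 ± 0.21. In that comparison 0.827% of all genes tested were called lower. Whether these 2 calls hold under the alternative settings was not tested. Their Con levels were -3.19 and -2.39 in WT and -5.14 and -3.67 in KpCKO cells for *Gbp8*, and -5.58 and -5.23 against -7.10 and -6.33 for *Gm12250*. The genotypes did not overlap for either gene, which 17.7% of all genes showed in this direction. *Gm12250* was not well above background on the KpCKO array of culture 1. *Tgtp1*, an effector IRG nearly identical to *Tgtp2*, had a Con difference of -2.41 at its brighter probe and -0.20 at its dimmer one, neither past the test. None of the 7 differed between the genotypes in M1 or M2 at its brightest probe, while the dimmer probe of *Gbp8* was lower in KpCKO M2 cells by -1.67 (adjusted p 0.0252) and that of *Irgq* was higher in KpCKO M1 cells by 0.52 (adjusted p 0.0450). *Gvin1*, the 1 of 5 other listed interferon-inducible GTPases with a probe, rose by 4.18 in WT M1 and by 1.75 in WT M2.

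The interferon pathway upstream of the family was read from 15 genes, of which 12 rose and 2 fell in WT M1 at the brightest probe, beside 34.5% and 28.7% of all genes tested. Among the 12, the receptor gene *Ifnar2* rose by 0.35 (limma, adjusted p 0.0415), while its dimmer probe gave -0.42 (adjusted p 0.0773). *Ifnb1*, the gene of interferon β, rose by 10.85, *Socs1*, a brake on the kinases, by 8.74, *Jak2* by 4.79 and *Irf1* by 4.58, while *Ifngr1*, a chain of the IFNγ receptor, fell by 0.99. In Con no gene of the list differed between the genotypes at its brightest probe, and the median difference was -0.12. *Irf9* differed by -0.66 (adjusted p 0.0928) and *Irf1* by -0.12 in Con. In M1 *Jak2* was lower in KpCKO cells by -1.21 and *Irf8*, an interferon-induced factor, by -0.54 (the other *Irf8* probe gave -0.57 with an adjusted p of 0.0728). The share of all genes called lower in that comparison was 8.59%.

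The route from Tlr4 to interferon β gave 9 genes. *Cd14*, the co-receptor of Tlr4 for LPS, was lower in KpCKO cells in all 3 conditions, by -1.19 in Con, -1.33 in M1 and -0.86 in M2. *Irf7*, which amplifies type I interferon, differed by -1.97 in Con without passing the test (adjusted p 0.105) and by -1.90 in M1, where it passed. *Ticam1*, the adaptor TRIF, was lower in M1 by -0.42 (its dimmer probe gave -0.45 with an adjusted p of 0.0619). The share of all genes called lower was 0.827% in Con, 8.59% in M1 and 0.644% in M2. The other 6 genes did not pass at their brightest probe in any of the 3 conditions, while the dimmer probe of *Tbk1*, a kinase of this route, was lower in M1 by -0.49 (adjusted p 0.0231).

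Of the 8 listed inflammasome genes 7 were tested, and all 7 rose in M1 in both genotypes, beside 34.5% of all genes in WT and 24.8% in KpCKO cells. *Casp4*, the caspase that binds LPS set free by GBPs, was lower in KpCKO cells in Con by -1.92, in M1 by -0.96 and in M2 by -1.30. *Il1b* was lower by -2.95, -2.96 and -2.99. *Nlrp3* and *Pycard*, sensor and adaptor of the inflammasome, were lower in M1 by -0.83 and -0.44, and differed by -0.50 and 0.17 in Con and by -0.52 and 0.34 in M2 without passing. Of all genes tested, 0.827% were called lower in KpCKO cells in Con, 8.59% in M1 and 0.644% in M2. The test of the difference in the M1 response called none of the 7. Whether the genotype calls of this list and of the interferon and Tlr4 lists hold under the alternative settings was not tested. Of 11 tested genes that place ATG8 proteins and ubiquitin at vacuoles, which steer GBPs and IRGs to their target, 2 were higher in KpCKO M1 cells, *Gabarapl1* by 1.43 and *Sqstm1*, the autophagy receptor p62 and a known Nrf2 target, by 1.12, where 7.41% of all genes were called higher, and none passed in Con or M2. The dimmer probe of *Atg3*, an enzyme of ATG8 conjugation, was lower in KpCKO M1 cells by -0.91 (adjusted p 0.00944), while its brighter one gave -0.47 (adjusted p 0.0568).

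The genes most like the family over the 12 arrays were *Gm12250*, *Batf2*, *Tgtp1*, *Tap1*, *Gbp4*, *Ccdc88b*, *Psmd10* and *Nod1*, with Pearson r of 0.999 to 0.995 to the mean level of the 10 genes, among 14447 genes compared. The members themselves had r of 0.984 (*Ifi47*) to 0.999 (*Gbp2*) to the mean of the other 9. These correlations are descriptions over 12 arrays that share slides and cultures, with the 4 M1 arrays far from the other 8. The same 8 genes differed between the genotypes in Con by -2.41 to -0.20, and *Gm12250* alone passed, where 0.827% of all genes tested were called lower. The 8 were chosen on these same arrays, Con included, so their Con differences are not a separate observation. *Gm12250*, *Tgtp1* and *Gbp4* are also among the family genes described above.

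Cell markers were set beside the Con difference. The summed intensity of 5 macrophage markers was 514200 and 507800 in WT Con and 366700 and 393100 in KpCKO Con. None of the 5 passed the limma test, with *Lyz2* at -0.95 (adjusted p 0.168) and *Csf1r* at -0.25. *Lyz2* is the lysozyme M gene, whose locus drives Cre in KpCKO mice, and it is part of the sum. Its difference and the sum therefore cannot be read as macrophage content apart from the genotype. In M1, *Adgre1* and *Itgam* were lower in KpCKO cells by -0.39 and -0.65, where 8.59% of all genes tested were called lower. The 8 T and NK cell markers summed to 250 and 170 in WT Con and to 278 and 215 in KpCKO Con, and *Ifng* differed by -0.47 (adjusted p 0.823). The 7 neutrophil markers summed to 18880 and 7530 in WT Con and to 17280 and 5114 in KpCKO Con. Fibroblast markers, 4 genes well above background on each Con array, summed to 37860 and 39870 in WT Con and to 56180 and 27670 in KpCKO Con. The part of the macrophage marker signal in the Con difference of the GTPase genes was not tested.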

How the data were processed

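Total RNA of 12 BMDM samples (6 groups of 2) was labelled with Cy3 and hybridised to single-colour Agilent mouse arrays. The authors scanned the arrays with Agilent Feature Extraction 10.7.3.1, and the deposited values are processed spot intensities after background subtraction. The authors also deposited a series matrix of log2 values normalized with GeneSpring; its kind of normalization is not stated. Set against the scanner files, its columns had slopes of 0.999674 to 1.00037 on the log2 scale and each of its 40842 probes had a median over the 12 arrays within 0.001 of 0, so that values were centred by probe, with column medians from -0.07 to 0.31; it served as an alternative.

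Here, log2 intensity minus the array's 75th percentile was used. Control and outlier spots were left out, replicate spots were averaged, and each gene was represented by its brightest probe. A gene was kept where 1 group or more had it well above background on each of its 2 arrays. Accessions named 26690 probes (18217 symbols). Levels were tested with limma 3.58.1 (R 4.3.3; lmFit, eBayes) in 1 model of 6 groups with culture as a block (5 residual and 1.92 prior degrees of freedom), with Benjamini-Hochberg adjustment over all genes tested, at a threshold of 0.05. The design text places 1 mouse of each genotype in a culture. As a check, deviations of same-numbered arrays over all genes correlated by 0.16 to 0.60 over 15 pairs of groups. Over the members alone they correlated by -0.16 to 0.65. Arrays were paired by culture on the design text and the correlations over all genes. The 2 arrays of a group correlated at 0.985 to 0.992 over genes. With 2 arrays a group, their number limits the precision. Figures were drawn with matplotlib 3.10.9, and the fit was tested on simulated data.

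The alternatives were the normalization, the background correction (normexp, offset 50), the matrix, filters and a floor on dim probes, the mean over probes, no block, the mouse as a random block, trended and robust variances, fewer arrays in the model, each array left out, and the methods' t-test. Named genes are the 10 members, genes of fixed lists, and the 8 genes most correlated with the members' mean. Members and lists were chosen with earlier results of these data known. Probe sequences were not used here, so signal shared between near-identical relatives (such as *Gbp6* with *Gbp10*) was not tested. All columns of per-sample values were mapped to a sample. The values of 1 gene of the interferon list are not reported here.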

Additional observations from a re-analysis of the deposited data

How the results depend on the processing

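The genes measured on every array were called higher in M1, in both genotypes, under every alternative except the methods' t-test after adjustment (9 of all 10 genes in WT, 0 in KpCKO). Of 1421 recomputed differences of single genes, 1343 kept their direction and side of the threshold, 36 lost and 12 gained a call and 30 changed sign. The number of genes called lower in Con KpCKO cells (3) was 0 with no filter on dim probes, 0 with no replicate block, 0 with only the Con arrays, 1 with normexp, 6 with trended and robust variances, 6 with genes well above background on all arrays, 1 by the methods' t-test and 0 after its adjustment, and 0 to 2 with 1 array left out. In WT M2 cells (3 lower) it was 1 with no filter, 1 with no replicate block, 0 by the adjusted t-test and 0 to 1 with 1 array left out. In KpCKO M2 (0) it was 1 with trended and robust variances and 1 with only the stimuli compared. Between genotypes, M1 (0) gave 3 by the unadjusted t-test, and M2 (0) gave 1 each with normexp, with trended and robust variances and by the unadjusted t-test. The block changed no other count.

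The changes of sign, none of them in a called value, were as follows. With normexp, the M2 difference in WT became 0.063 for *Gbp5* and 0.75 for *Gbp6*, that of *Gbp6* in KpCKO 0.0025, and its differences in response between genotypes -0.053 (M1) and -0.75 (M2). With a floor, *Gbp6* in KpCKO M2 gave 0.26. With quantile normalization, the M1 genotype difference became 0.17 for *Gbp6*, 0.065 for *Irgm2* and 0.036 for *Iigp1*. With 1 array left out, M2 against Con in WT ranged from -0.43 to 0.18 for *Gbp5*, -1.07 to 0.065 for *Gbp6* and -0.56 to 0.0080 for *Gbp7*, and in KpCKO from -0.85 to 0.15 for *Gbp3*, -0.014 to 0.33 for *Gbp5* and -0.35 to 0.69 for *Gbp7*. The genotype difference in M1 ranged from -0.67 to 0.073 for *Gbp5*, -0.57 to 0.55 for *Gbp6*, -0.37 to 0.050 for *Irgm2*, -0.91 to 0.49 for *Iigp1* and -0.86 to 0.10 for *Ifi47*, and in M2 from -0.049 to 0.072 for *Irgm1* and -1.11 to 0.016 for *Iigp1*. The difference in M2 response ranged from -0.020 to 0.58 for *Gbp5*, -0.27 to 0.86 for *Gbp6* and -0.076 to 0.96 for *Gbp7*.

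Normexp moved the median of all genes from 0.13 to 0.40 for M1 in WT, from -0.01 to 0.27 for M2 in WT, from -0.09 to -0.22 for the genotypes in M1 and from 0.02 to -0.20 in M2, and quantile normalization moved it to -0.08 for M1 in WT. The share of calls that were higher went with normexp from 51.2 to 61.2% for M2 in WT and from 66.6 to 52.8% for the genotypes in M2. The share of all genes called in either direction fell, with 1 array left out, from 16.8% to 4.15 to 5.22% for M2 in WT, from 10.2% to 2.19 to 3.65% for M2 in KpCKO, from 2.21% to 0.429 to 0.761% for the genotypes in Con and from 1.93% to 0.300 to 0.626% in M2. With normexp, no filter and no block in turn, the genes called numbered 1858, 2371 and 1715 against 3764 for M2 in WT, 763, 1230 and 893 against 2280 for M2 in KpCKO, 184, 259 and 192 against 495 for the genotypes in Con and 250, 236 and 193 against 431 in M2. Normexp gave 1065 against 3578 for the genotypes in M1 and 7213 against 11228 for M1 in KpCKO. With only the stimuli compared, each genotype comparison called 0. The difference in M1 response, 16 genes, ranged from 0 to 108 over the settings and reached 537 when WT M1 of culture 1 was left out, and that in M2 response, 2 genes, from 0 to 2. The cause of these shifts was not tested.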
